A study of Mus musculus with 12 samples.

Results

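A group of 8 voltage-gated sodium channel subunit genes was followed in bulk RNA sequencing of mouse embryonic heart ventricles: Scn1a, Scn3a, Scn4a, Scn7a and Scn10a, which encode alpha subunits or the alpha-like Scn7a protein, and Scn2b, Scn3b and Scn4b, which encode beta subunits. They were taken by symbol and make up 8 of the 40800 genes in the count table, each on 1 row. Other genes of the family were not analysed here. The 12 libraries came from ventricles at embryonic day 12.5, 6 with the genotype Wnt gain of function and 6 labelled control. The labels name no allele, Cre driver or strain, and do not say whether a library holds 1 embryo or several, so a p-value here reflects variation among libraries, part of which may be technical. The title of the series places the comparison in the setting of arrhythmia.

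A voltage-gated sodium channel opens when the membrane depolarises and carries the inward current that starts the action potential in heart muscle and neurons. The alpha subunit forms the pore and senses voltage. Beta subunits are small proteins with an extracellular immunoglobulin domain and a single membrane span that shift the gating and surface level of the channel and act in cell adhesion. Scn2b and Scn4b proteins bind alpha subunits through a disulfide bond, and the Scn3b protein binds without one. Canonical Wnt signalling acts through beta-catenin and TCF/LEF transcription factors.

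Total counts were 12127026 to 17184662 per Wnt gain-of-function library and 10130088 to 17526325 per control library, so 1 CPM (counts per scaled library size, TMM scaling) stood for at least 12.2 reads with Wnt gain of function and 9.93 in control. All 8 cardiomyocyte markers were detected, and they summed to 28485 to 36845 CPM in Wnt gain-of-function libraries and 29752 to 39387 CPM in control libraries. Wnt gain-of-function replicate 5 stood apart at the pathway's own feedback genes. Its Axin2 was 3.77 CPM, against 14.9 to 26.0 CPM in the other 5 Wnt gain-of-function libraries and 1.39 to 4.13 CPM in control libraries. Wnt gain-of-function replicates 3 and 4, replicates 1 and 2 of the same group, and control replicates 2 and 3 were very alike. Their mean chi-square per gene, which is near 1 for sampling noise alone, was 3.07, 3.10 and 3.32, against 12.8 for the next closest pair. They differed by more than sampling noise and were counted as separate libraries in n, but whether a pair shares an embryo or RNA is not given in the labels, and p-values are too small if it does. The results below are also given with these pairs summed or without replicate 5 where that changed a call.

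Of the 8 genes, the beta subunit gene Scn4b alone rose, and 0 fell. Low-count filtering left 6 of the 8, 3 alpha and 3 beta subunit genes, and edgeR's quasi-likelihood test over all 14774 genes that passed called 1 of them higher and 0 lower, with adjusted p below 0.05 as the threshold. Over all genes tested, 0.501% were called, 0.433% higher and 0.0677% lower. At an unadjusted p under 0.05, 2 of the 6 were higher (Scn4b and Scn3b) and 2 lower (Scn7a and Scn10a), where 6.3% of all genes tested passed, 3.73% higher and 2.57% lower. DESeq2 likewise called 1 higher and 0 lower, and limma-voom called 0. The median log2 fold change of the 6 was -0.20, against 0.00 over all genes tested. With Wnt gain-of-function replicate 5 left out, edgeR called 1 higher and 1 lower, among 149 higher and 28 lower of all 14882 genes tested. With the closest pairs summed it called 0, and over all 15112 genes tested 0 higher and 1 lower, with 600 at an unadjusted p under 0.05. Of the subunit genes, Scn4b alone was under that limit there (unadjusted p = 0.000288, edgeR). Scn3b was at 0.0835, Scn7a at 0.0644 and Scn10a at 0.0717.

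**Figure D1:**
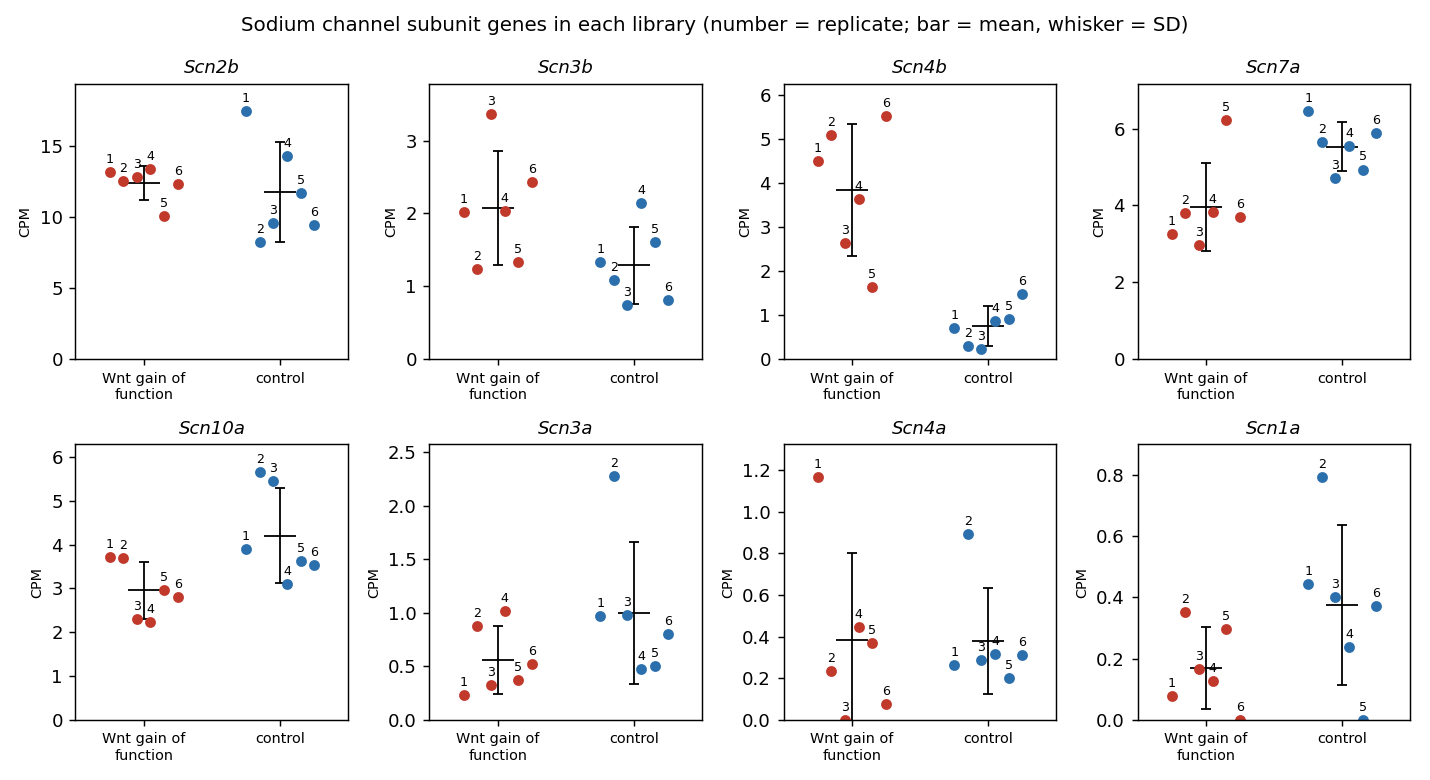
Each panel shows 1 gene, with the CPM of every library as a numbered point (Wnt gain of function left in red, control right in blue), a bar at the mean and whiskers of 1 SD. The groups are apart at Scn4b, where the lowest Wnt gain-of-function library had 1.63 CPM and the highest control library 1.48 CPM, and they overlap at the other 7 genes.

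Scn4b (ENSMUSG00000046480), whose protein carries a cytoplasmic tail known in neurons as a blocker of open channels, was low in control ventricles and about 5 times higher with Wnt gain of function. Its CPM was 1.63 at the lowest, 4.07 at the median and 5.54 at the highest in Wnt gain-of-function libraries, against 0.23, 0.791 and 1.48 in control libraries. All 6 Wnt gain-of-function libraries lay above every control library. Only 0.46% of all genes tested had groups that did not overlap. The reads behind these values numbered 22 to 87 per Wnt gain-of-function library and 3 to 24 per control library. The means were 3.84 ± 1.5 CPM in Wnt gain-of-function and 0.75 ± 0.46 CPM in control libraries (SD, n = 6 each). The log2 fold change was 2.33 ± 0.389 (SE; 95% interval 1.5 to 3.16; edgeR adjusted p = 0.0145), which is 5.03-fold, with an interval of 2.84-fold to 8.93-fold. In the authors' deposited table the log2 fold change of Scn4b was 2.45 with an adjusted p of 0.0422. Their comparison of the same libraries holds 27743 genes, 36 of them with an adjusted p under 0.05, against 14774 genes tested here.

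The margin at Scn4b rested on 1 library from each group. Wnt gain-of-function replicate 5 had the lowest value of its group, 1.63 CPM, and control replicate 6 the highest of its own, 1.48 CPM. Leaving out replicate 5 gave 2.49 on the log2 scale (adjusted p = 0.000979 in edgeR), and leaving out control replicate 6 gave 2.70 (0.0172). Over the 12 settings that left out 1 library each, the log2 fold change stayed between 2.11 and 2.70 and the adjusted p at or under 0.0404. The call did not hold with the closest pairs summed, where it was 2.22 on the log2 scale (adjusted p = 0.208 in edgeR), nor in limma-voom, where it was 2.45 (adjusted p = 0.0504). Few genes were called anywhere in these settings. Limma-voom called 3 genes higher and 3 lower of all 14774 tested, and with the closest pairs summed edgeR called 0 higher and 1 lower of 15112. Clustering of the libraries' deviations from their group means, cut into 3, gave sets of 4 libraries, 2 of each group. Scn4b was higher in both Wnt gain-of-function libraries than in both control libraries of every set, 18.2-fold, 3.52-fold and 3.27-fold by the means. The first of these rests on 3 and 4 reads in the control libraries. The first set is made up of 2 of the close pairs and the second holds the other, so both libraries of a group there may not be independent. The share of all genes tested that separate in every set was not computed.

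**Figure D2:**
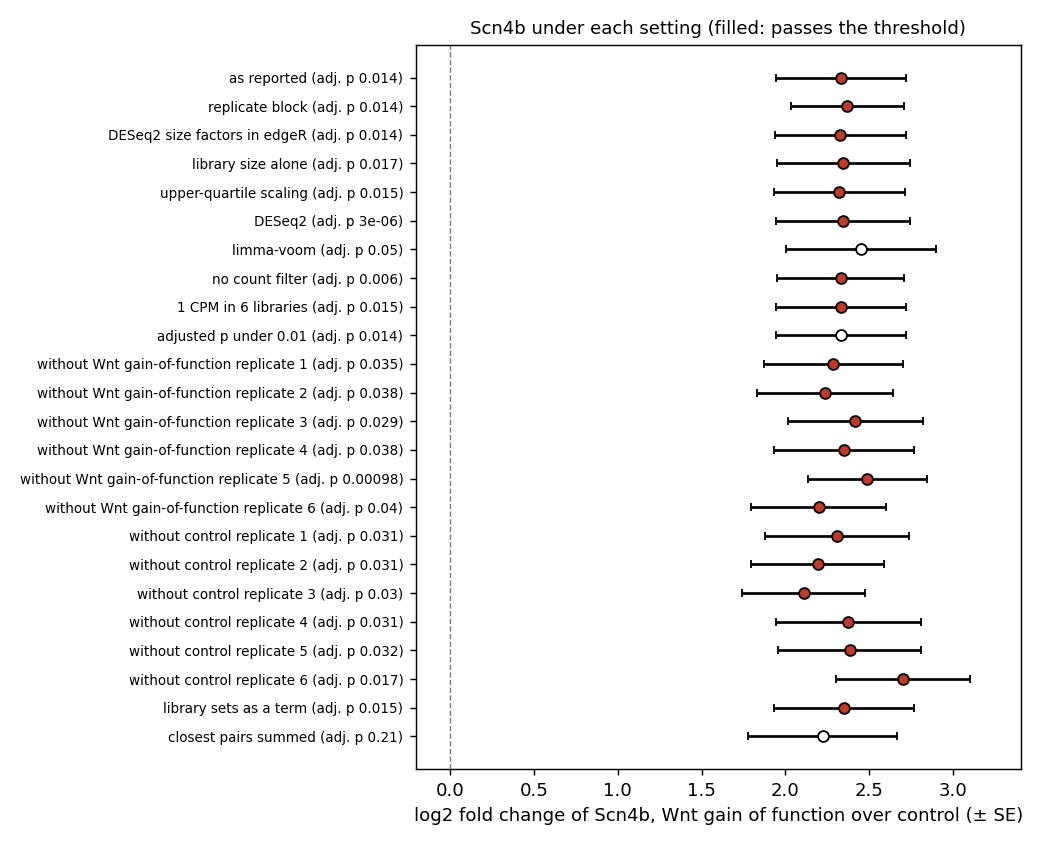
The points give the log2 fold change of Scn4b, Wnt gain of function over control, under the reported setting and 23 alternatives, with whiskers of 1 SE and the adjusted p beside each setting name. Every estimate lies between 2.11 and 2.70, and the 3 open points missed their threshold: limma-voom, a threshold of 0.01 and the closest pairs summed.

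Scn4b was set beside Axin2, a scaffold protein in beta-catenin breakdown, and Notum, a secreted enzyme that inactivates Wnt ligands, both of them feedback targets of the pathway. In Wnt gain-of-function replicate 5 all 3 genes were at their lowest for the group, with 1.63 CPM of Scn4b, 3.77 CPM of Axin2 and 1.18 CPM of Notum. This Notum value lay above the control range of 0.115 to 0.874 CPM. It lay below the 12.9 to 22.4 CPM of the other 5 Wnt gain-of-function libraries. Among the other 5 Wnt gain-of-function libraries the order was not shared. Replicates 6 and 2 had the highest Scn4b, 5.54 and 5.10 CPM, with 18.9 and 14.9 CPM of Axin2. Replicates 4 and 3 had the highest Axin2, 26.0 and 24.8 CPM, and 3.63 and 2.63 CPM of Scn4b. In control libraries replicates 2 and 3 were lowest for both genes, with 0.298 and 0.23 CPM of Scn4b and 1.39 and 1.95 CPM of Axin2. No correlation was computed, since the libraries fall into separate groups and some are close pairs.

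**Figure D3:**
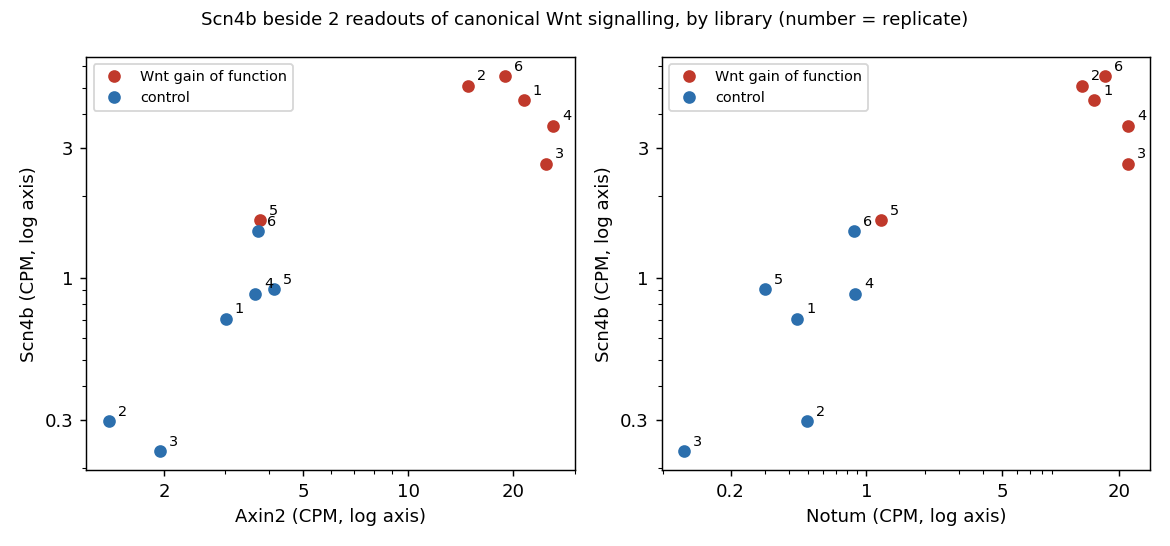
Each point is 1 library, numbered by replicate, with Scn4b CPM on the vertical axis and Axin2 (left) or Notum (right) CPM on the horizontal axis, both on log scales. Wnt gain-of-function replicate 5 lies within the control range of Axin2, at 3.77 CPM. Its Scn4b, at 1.63 CPM, and its Notum, at 1.18 CPM, lie above every control library. The other 5 Wnt gain-of-function libraries lie at 2.63 to 5.54 CPM of Scn4b.

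Scn4b and Scn2b are neighbours on the same strand of chromosome 9, with 8.33 kb between the end of Scn2b and the start of Scn4b in GENCODE M21. Of the pair, Scn4b rose and Scn2b, with a log2 fold change of 0.07, did not pass the test. Of the 3 genes on either side of Scn4b that the count table holds, only Scn2b passed the count filter. Amica1, an adhesion molecule of leukocytes, averaged 0.87 ± 0.52 CPM in Wnt gain-of-function libraries and 0.369 ± 0.225 CPM in control libraries. The other 4 had 0 to 9 reads over all libraries, Gm10684 and Gm17099 with 0, Tmprss4 with 1 and BC049352 with 9. The promoters of both subunit genes are shown because they stand side by side and only 1 of the genes was called. They run from 250 bases before to 50 after the gene start, from RefSeq on GRCm38.p6, plus strand, at chr9:45138374-45138673 for Scn4b and chr9:45117626-45117925 for Scn2b, 5′ to 3′. Capitals mark the TCF/LEF core motif, searched on both strands as the letters CTTTG followed by AA, by AT, by TA or by TT.

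Scn4b: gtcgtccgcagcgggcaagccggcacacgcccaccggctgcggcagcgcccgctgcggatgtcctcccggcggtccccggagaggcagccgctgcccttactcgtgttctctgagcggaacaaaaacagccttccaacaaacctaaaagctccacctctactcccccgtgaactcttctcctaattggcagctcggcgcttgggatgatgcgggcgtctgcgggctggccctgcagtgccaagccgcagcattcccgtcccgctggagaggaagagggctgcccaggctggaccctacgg

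Scn2b: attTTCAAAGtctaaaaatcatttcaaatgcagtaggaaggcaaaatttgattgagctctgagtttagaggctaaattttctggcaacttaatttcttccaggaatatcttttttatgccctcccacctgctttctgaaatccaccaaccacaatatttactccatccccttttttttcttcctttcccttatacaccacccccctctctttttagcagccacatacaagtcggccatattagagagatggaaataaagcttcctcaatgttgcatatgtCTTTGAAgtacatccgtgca

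The Scn4b window held 0 matches, and the Scn2b window held 2, TTCAAAG near its start and CTTTGAA after the gene start, which do not overlap. At least 1 match was found in 16.9% of 32851 RefSeq promoter windows of 300 bases. The 2 windows differ in base composition. Scn4b had 66.3% G and C with 26 CG dinucleotides, more than 83.1% of all windows, whereas Scn2b had 38.3% and 2, and the median window had 52.7% and 7. Among the 6 of the 8 genes with a promoter in the RefSeq table, Scn2b alone held a match. A match describes letters in a window and is not evidence of binding, and a window without one says nothing of sites elsewhere.

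Scn2b (ENSMUSG00000070304) had the highest level per exon length of the 8 genes in both groups. Its lowest, median and highest values were 10.1, 12.7 and 13.4 CPM with Wnt gain of function and 8.23, 10.6 and 17.5 CPM in control libraries. The control range spanned the whole Wnt gain-of-function range. The log2 fold change was 0.07, with a 95% interval of -0.27 to 0.42 (edgeR adjusted p = 0.999), so changes beyond 1.34-fold higher or 1.21-fold lower lay outside the interval. Its sign turned to -0.02 with the closest pairs summed. The coefficient of variation was 9.73% in Wnt gain-of-function libraries and 29.8% in control libraries.

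Scn3b (ENSMUSG00000049281), which encodes the beta subunit that binds without a disulfide bond, was higher on average and did not pass the test. It had 1.23, 2.03 and 3.37 CPM at the lowest, median and highest in Wnt gain-of-function libraries, against 0.746, 1.21 and 2.14 CPM in control libraries. Replicates 3 and 6 of the Wnt gain-of-function group lay above every control library, and the others lay within the control range. The log2 fold change was 0.70 ± 0.307 (SE; 95% interval 0.05 to 1.35; edgeR adjusted p = 0.709). It kept its sign in all 23 alternatives, with an adjusted p of at least 0.165.

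Per exon length, Scn4b made up a larger part of the 3 beta subunit genes in Wnt gain-of-function libraries on average. Levels were set on RPKM, the CPM divided by exon length in kilobases, using merged exon lengths of GENCODE M21. By this measure Scn4b averaged 0.77 ± 0.302 RPKM in Wnt gain-of-function libraries and 0.151 ± 0.0923 RPKM in control libraries (SD, n = 6 each). Its share of the summed level of the 3 genes was 11.96% to 26.4% in Wnt gain-of-function libraries, with a mean of 19.7%, and 2.06% to 12.03% in control libraries, with a mean of 5.23%. The shares met at Wnt gain-of-function replicate 5 (11.96%) and control replicate 6 (12.03%), so here the groups overlapped. Scn2b remained the larger part, at 63.0% to 79.1% in Wnt gain-of-function and 82.0% to 91.8% in control libraries. The summed level was 3.81 ± 0.54 RPKM in Wnt gain-of-function and 2.92 ± 0.834 RPKM in control libraries, with overlapping groups.

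**Figure D4:**
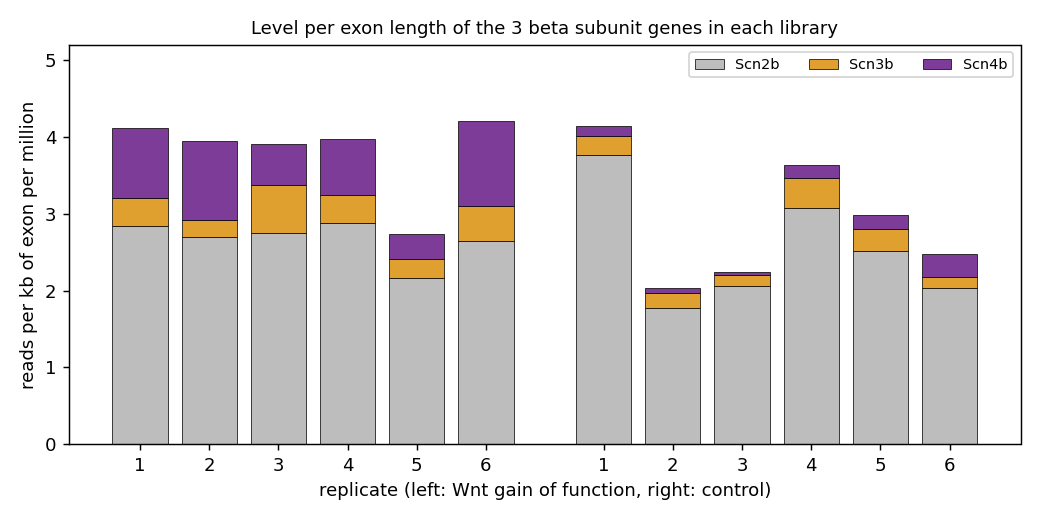
Stacked bars give the level of Scn2b (grey), Scn3b (orange) and Scn4b (purple) in RPKM for each library, Wnt gain of function on the left and control on the right. The purple part ranges from 0.327 to 1.11 in Wnt gain-of-function libraries and from 0.0461 to 0.298 in control libraries.

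Of the 5 alpha subunit genes followed here, Scn7a and Scn10a had the highest mean levels per exon length in both groups. Both lay lower in most Wnt gain-of-function libraries. With all libraries, neither passed the test over all genes. Scn7a (ENSMUSG00000034810) encodes an atypical member of the family that responds to the sodium concentration rather than to voltage and is known from glia and peripheral nerve. It had 2.96, 3.75 and 6.22 CPM at the lowest, median and highest in Wnt gain-of-function libraries and 4.71, 5.61 and 6.46 CPM in control libraries. Of the Wnt gain-of-function libraries, 5 lay below every control library, at 2.96 to 3.82 CPM, and replicate 5 lay inside the control range at 6.22 CPM. The log2 fold change was -0.48 ± 0.176 (SE; 95% interval -0.85 to -0.10; edgeR adjusted p = 0.506). Without replicate 5 Scn7a fell by 0.65 on the log2 scale and passed the test (edgeR adjusted p = 0.0439), the only 1 of 23 alternatives in which it did.

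Scn10a (ENSMUSG00000034533), the tetrodotoxin-resistant channel of sensory neurons, which the mouse heart is also known to express at low level, was lower on average with Wnt gain of function and did not pass the test. Its lowest, median and highest values were 2.23, 2.88 and 3.73 CPM with Wnt gain of function and 3.10, 3.76 and 5.65 CPM in control libraries. Of the Wnt gain-of-function libraries 4 lay below every control library, and replicates 1 and 2, at 3.73 and 3.69 CPM, lay inside the control range. The log2 fold change was -0.51 ± 0.199 (SE; 95% interval -0.93 to -0.09; edgeR adjusted p = 0.565).

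Within each of the 3 sets of libraries, both Wnt gain-of-function libraries had less Scn10a than both control libraries. The share of all genes tested that separate in this way was not computed, so the separation is a description only. The Wnt gain-of-function mean was 3.71 CPM against a control mean of 5.55 CPM in the first set. It was 2.27 CPM against a control mean of 3.36 CPM in the second set, and 2.88 CPM against a control mean of 3.71 CPM in the third. With the sets as a term the log2 fold change was -0.50 ± 0.138 and the edgeR adjusted p was 0.0639, still above the threshold, in a fit that called 195 genes higher and 100 lower of all tested. With the closest pairs summed the log2 fold change was -0.43 (unadjusted p = 0.0717, adjusted p = 0.99997 in edgeR). Because the sets were derived from the libraries being tested, this p can be too small. Scn7a showed the same separation in 2 of the 3 sets, and its adjusted p with the sets as a term was 0.106.

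Scn3a (ENSMUSG00000057182), a channel of the embryonic brain, had 0.233 to 1.02 CPM in Wnt gain-of-function libraries and 0.477 to 2.28 CPM in control libraries, which is 3 to 16 and 5 to 23 reads. The groups overlapped, and control replicate 2 lay well above the rest. Its log2 fold change was -0.76, with a 95% interval of -1.66 to 0.14 (edgeR adjusted p = 0.934). Scn1a and Scn4a did not pass the count filter, and their fold changes come from the same edgeR test on all 27743 genes with at least 1 read. Scn1a, a channel of central neurons, had 0 to 6 reads in Wnt gain-of-function libraries and 0 to 8 in control libraries, 15 and 29 in all, with a log2 fold change of -1.06 (95% interval -2.32 to 0.19; adjusted p = 0.812). Scn4a, the channel of skeletal muscle, had 0 to 15 reads in Wnt gain-of-function libraries and 2 to 9 in control libraries, 32 and 28 in all, with a log2 fold change of 0.04 (95% interval -1.16 to 1.24; adjusted p = 0.994). Its sign changed in 9 of 23 alternatives. At this depth changes of these 3 genes smaller than their intervals were not detectable.

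**Figure D5:**
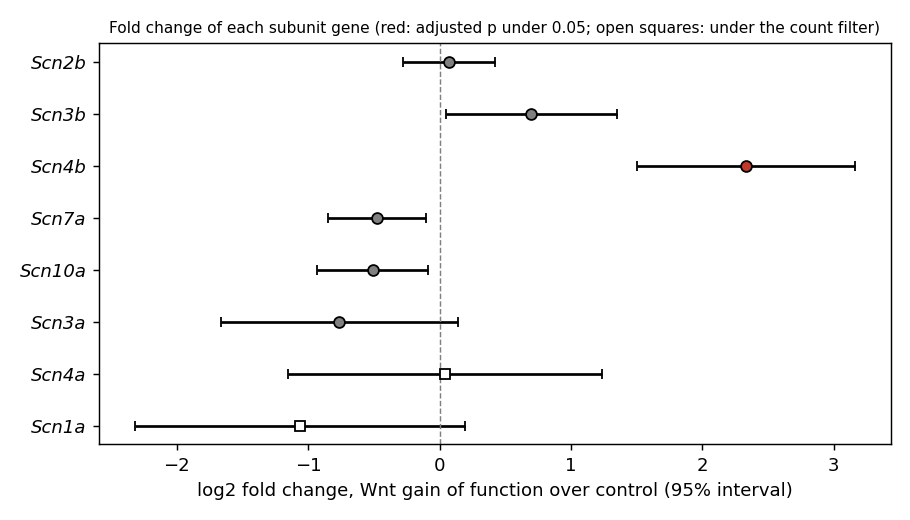
Points give the log2 fold change of each gene, Wnt gain of function over control, with its 95% interval. Scn4b alone is filled red for an adjusted p under 0.05, at 2.33, and the open squares are Scn4a and Scn1a, which were under the count filter.

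Compared per exon length, Scn4b stood next after Scn2b with Wnt gain of function and after Scn2b, Scn7a, Scn10a and Scn3b in control. The mean of Scn3b was above that of Scn10a, and that of Scn4a above that of Scn3a, with Wnt gain of function, and both orders were turned round in control, each pair with overlapping ranges. In Wnt gain-of-function libraries the mean RPKM was 2.66 for Scn2b, 0.77 for Scn4b, 0.54 for Scn7a, 0.379 for Scn3b, 0.371 for Scn10a, 0.0542 for Scn4a, 0.0448 for Scn3a and 0.0152 for Scn1a. In control libraries it was 2.53 for Scn2b, 0.754 for Scn7a, 0.528 for Scn10a, 0.236 for Scn3b, 0.151 for Scn4b, 0.0805 for Scn3a, 0.0538 for Scn4a and 0.0336 for Scn1a. Scn2b stood clear of the next gene in every library of both groups. All other neighbours in either order had overlapping ranges across libraries, apart from Scn10a and Scn4a with Wnt gain of function. The exon lengths may differ from those the counts were made with.

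Markers of nerve and skeletal muscle, the tissues in which several of these channels are best known, were present at low level. The 8 neuronal markers summed to 68.4 to 81.2 CPM in Wnt gain-of-function libraries and 69.0 to 97.6 CPM in control libraries. The 8 Schwann and neural crest markers summed to 26.5 to 36.2 CPM with Wnt gain of function and 32.3 to 37.6 CPM in control. Sox10 and Foxd3, which define the neural crest and Schwann lineage, had 13 and 1 reads over all libraries. Of the markers tested, 5 of 6 neuronal and 4 of 5 Schwann and neural crest genes had a log2 fold change below 0, and none of the 11 was called in edgeR. The 8 skeletal muscle markers summed to 44.6 to 190.9 CPM with Wnt gain of function and 50.04 to 269.8 CPM in control, with 8 reads of Myod1 and 3 of Pax7 over all libraries. Ckm made up most of each sum. It was 29.4 of 52.8 CPM in Wnt gain-of-function replicate 6 and 252.5 of 263.0 CPM in control replicate 3. The 8 conduction and pacemaker markers summed to 27.5 to 54.0 CPM with Wnt gain of function and 39.7 to 67.6 CPM in control. Of the 6 tested, 3 had a log2 fold change above 0, and the median was 0.10. Smoc2 fell, at 9.17 CPM with Wnt gain of function and 18.6 CPM in control (log2 difference -1.02, adjusted p = 0.0095 in edgeR). Isl1 had the lowest value, -1.61 (adjusted p = 0.586 in edgeR), and Cpne5 the highest, 0.48 (adjusted p = 0.572 in edgeR). Endothelial markers summed to 805.6 to 873.3 CPM with Wnt gain of function and 732.1 to 817.9 CPM in control, atrial markers to 2593 to 3839 CPM with Wnt gain of function and 1877 to 3946 CPM in control, and mesenchymal markers to 2457 to 3052 CPM with Wnt gain of function and 2642 to 3379 CPM in control. None of these 3 lists had a called gene in edgeR, where 0.501% of all genes tested were called. Whether any of these cells contribute to Scn7a, Scn10a or the other subunit genes was not tested, and in whole ventricles fewer cells of a type cannot be told apart from less RNA per cell.

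Of the genes listed as acting on sodium channels, 0 passed the test, where 0.501% of all genes tested did. With so few genes, 0 calls does not set the list apart. The list of modulators, scaffolds, adhesion partners and processing enzymes held 26 genes, of which 23 were tested. EdgeR called 0 higher and 0 lower, as did DESeq2. At an unadjusted p under 0.05 in edgeR 1 was lower, where 2.57% of all genes tested were. The median log2 fold change was -0.05, with a range of -0.68 to 0.23. The 4 with the lowest p all had negative values. Camk2d, a calmodulin-dependent kinase that phosphorylates cardiac channels, averaged 221.0 CPM in Wnt gain-of-function and 256.0 CPM in control libraries, a log2 difference of -0.21 (adjusted p = 0.549, edgeR). The intracellular fibroblast growth factor homologous factors Fgf14, Fgf11 and Fgf13, which bind the channel's cytoplasmic tail, had values of -0.68, -0.37 and -0.20 on the same scale (adjusted p 0.885, 0.983 and 0.999 in edgeR).

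Of 14 transcription factors tied to sodium channel and conduction gene expression in the heart, all tested, edgeR called 0 higher and 1 lower. Over all genes tested, 0.433% were called higher and 0.0677% lower. The factor that fell was Hey2, a transcriptional repressor expressed in the compact myocardium. It was at 72.4 ± 5.64 CPM in Wnt gain-of-function and 97.4 ± 6.90 CPM in control libraries (SD, n = 6 each). This is -0.43 on the log2 scale (adjusted p = 0.0145, edgeR). At an unadjusted p under 0.05, 4 of the 14 were higher, where 3.73% of all genes tested were. They included Tbx5, Irx3 and Tbx3, which act in conduction system development, whose log2 fold changes were 0.25, 0.45 and 0.41 (adjusted p 0.51, 0.701 and 0.76 in edgeR). The call of Hey2 was lost in limma-voom and with the closest pairs summed. The median of the list was -0.03.

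Genes whose deviations from the group means were most like those of each subunit gene over the 12 libraries differed from gene to gene. For Scn4b they were Slc13a4, a sulfate transporter (Pearson r = 0.947), Ltv1 (0.919) and Nolc1 (0.899), which act in ribosome biogenesis. Of these, Slc13a4 also rose, at 14.2 CPM with Wnt gain of function and 4.07 CPM in control (log2 difference 1.80, adjusted p = 0.0145 in edgeR), while Ltv1 and Nolc1 had 0.02 and 0.06. With the closest pairs summed 0 genes were called higher, so the call of Slc13a4 was lost there. For Scn10a they were Aifm1 (0.988), Ifit2 (0.983) and Abhd18 (0.981), for Scn3b Slc9a3r1 (0.951), Stat5a (0.942) and Clasrp (0.941), and for Scn7a Cfap161 (0.873), Slc39a10 (0.870) and Edc3 (0.868). For Scn2b they were Mllt6 (0.876), Stmn4 (0.866) and Cyr61 (0.860), and for Scn3a Mcf2l (0.888), Mrps5 (0.878) and Nfatc2 (0.842). The points share the libraries, their depth and the library sets, so these values are a description. Between the subunit genes themselves r ranged from -0.62 for Scn10a and Scn3b to 0.55 for Scn2b and Scn3b.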

How the data were processed

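The deposited table holds unnormalised counts, one column for each library and Ensembl gene IDs in rows, per the file headers. The submitters' processing notes name Subread, featureCounts and edgeR. The sources used here give no versions, genome build, annotation or strand setting, so reads from overlapping genes or close paralogs are uncertain. The log2 fold change and p-values quoted as the authors' come from their deposited comparison table, whose column names are limma's. Columns were matched to samples by title. Titles of control samples also end in (wntgof), so groups came from the genotype label alone.

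The 41422 rows held 622 repeats of a gene ID, which were left out. The model was edgeR 4.0.16 under R 4.3.3, with filterByExpr (minimum count 10), trimmed mean of M values, robust quasi-likelihood fit with group as the only term, Benjamini-Hochberg adjustment over all genes tested, called under 0.05. SE came from the F statistic. CPM used scaled library sizes. Depth limits the precision of genes with few reads. Exon lengths came from GENCODE M21, which matched 98.9% of gene IDs. Likeness used log2 CPM with a prior count of 2, for subunit genes averaging at least 1 CPM in a group.

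The genes, lists and library sets were chosen with earlier results of these data known. The genes named by rule are the 8 members, the 4 lowest p of the partner and factor lists, the 3 neighbours on each side of a called member, the 3 most alike genes, Axin2 and Notum. Marker genes named singly (Sox10, Foxd3, Myod1, Pax7, Smoc2, Isl1, Cpne5, Ckm and Stmn2) followed no such rule. Alternatives tried: replicate number as a block, other scalings, DESeq2 1.42.0, limma-voom (limma 3.58.1), other filters, a threshold of 0.01, each library left out, the library sets as a term and the closest pairs summed. Correlations of deviations between libraries of the same number ranged from -0.377 to 0.463. Replicates 2, 4 and 6 of both groups fell in the same library set as their namesake. This check cannot exclude that the numbers pair the libraries.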

Additional observations from a re-analysis of the deposited data

Results flagged for a closer look

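In each group, the gap from the most extreme library to the nearest of the others was compared with the group's range, for 10 genes and 20 groups. Chance flags about 1 in 20 groups. Scn7a in Wnt gain-of-function replicate 5 was 6.22 CPM, with the next library of its group at 3.82 CPM. Scn2b in the same library was 10.1 CPM, the lowest of its group, with the next at 12.3 CPM. Scn3a in control replicate 2 was 2.28 CPM, with the next at 0.976 CPM. Scn4a in control replicate 2 was 0.893 CPM, with the next at 0.318 CPM, which rests on 9 reads in that library.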

How the results depend on the processing

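Of 23 alternatives, Scn4b kept its direction in all and its call in 20. The number of subunit genes called higher was 0, against 1 as reported, in limma-voom, at a threshold of 0.01 and with the closest pairs summed. The number called lower was 0 to 1 over the settings that left out 1 library each, with 1 (Scn7a) without Wnt gain-of-function replicate 5, against 0 as reported. The lower transcription factors numbered 0, against 1, in limma-voom, at a threshold of 0.01 and with the closest pairs summed, and the higher ones 1, against 0, with the library sets as a term. The partner list had 0 calls in either direction throughout. With the replicate number as a block, Scn4b was at 2.37 on the log2 scale (adjusted p = 0.0135 in edgeR), 1 subunit gene was called higher and 0 lower, and Scn4a turned to -0.24. Scn4a was also negative in limma-voom, at -0.50, and ranged from -0.64 to 0.42 with 1 library left out. Scn2b was -0.021 with the closest pairs summed and ranged from -0.0049 to 0.21 with 1 library left out. The causes were not tested. Scn3a did not pass the filter of 1 CPM in 6 libraries and has no value there. Depth limits Scn1a and Scn4a, with 44 and 60 reads in all.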

Other observations

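The first library set also showed in Ckm, a listed skeletal muscle marker, which was chosen after its values were seen. Ckm, the muscle creatine kinase, was at 170.5 and 176.8 CPM in Wnt gain-of-function replicates 1 and 2 and at 27.2 to 34.3 CPM in the other 4 libraries of that group. In control replicates 2 and 3 it was at 257.5 and 252.5 CPM, and at 31.3 to 47.5 CPM in the other 4. These libraries also had the highest cardiomyocyte marker sums of their groups. The sums were 35870 and 36845 CPM with Wnt gain of function and 38402 and 39387 CPM in control. Their atrial marker sums were the lowest of their groups, at 2738 and 2593 CPM with Wnt gain of function and 1976 and 1877 CPM in control. Scn10a was highest for its group in the same 4 libraries of the first set, at 3.73 and 3.69 CPM with Wnt gain of function and at 5.65 and 5.45 CPM in control. Stmn2, a neuronal growth-cone protein, also chosen after its values were seen, was at 1.16 to 6.51 CPM in Wnt gain-of-function libraries and 2.93 to 9.02 CPM in control libraries. As at Scn7a, Wnt gain-of-function replicate 5 had the highest Stmn2 of its group. Relations between these genes and sums, and which cells the Ckm RNA came from, were not tested.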
